A study of Homo sapiens with 14 samples.

Results

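Goblet cells make and release the mucus of the gut, and 10 genes of that program were followed here in HT-29, a human colorectal carcinoma line: the secreted or secretory-pathway products AGR2, AGR3, TFF1, TFF2, TFF3, FCGBP and REG4, and the transcription factors SPDEF, CREB3L1 and ATOH1. They were taken by gene name from the 36555 rows of the deposited count table, where each name has 1 row, and 8 of the 10 had enough reads to be tested. RNA was sequenced from wild-type HT-29 cells in 6 groups: TNF with ferrostatin-1 (3 libraries), TNF with liproxstatin-1 (2), TNF alone (2), ferrostatin-1 alone (2), liproxstatin-1 alone (2) and control medium with 0.1% DMSO (3). TNF, an inflammatory cytokine, was used at 100 ug/ml as labelled, each compound at 20 uM, and treatments lasted 72 h. Both compounds are radical-trapping inhibitors of ferroptosis, a form of cell death driven by lipid peroxidation, and the study asked why they differ in their effect on apoptosis caused by TNF. The design calls the replicates technical and counts 3 per group, so p-values measure only the spread between these libraries, and all of them come from 1 line. These are bulk libraries, so fewer goblet-like cells and less RNA per cell cannot be told apart.

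In the intestine, ATOH1 commits progenitors to the secretory lineage, and SPDEF, studied mainly in mice, drives goblet cells to mature. CREB3L1 is held in the membrane of the endoplasmic reticulum (ER) until it is cut and moves to the nucleus. AGR2 and its paralog AGR3 belong to the protein disulfide isomerase family of the ER, and in mice AGR2 is needed to make the mucin MUC2. FCGBP is a large protein of the mucus layer, the trefoil factors TFF1, TFF2 and TFF3 are small secreted peptides that protect and repair the mucosa, and REG4 is a secreted lectin-like protein.

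Total counts ran from 59913850 to 75838597 per library. The TNF libraries, numbered 1 and 3 in the table, lay further apart (chi-square of 200 per degree of freedom over genes) than the pairs of any other group (14.5 to 74.2). TNFAIP3, an NF-kB target used to check the TNF label, stood at 95.3 to 122.4 CPM (reads scaled to library size) in the libraries with TNF, against 4.88 to 7.12 CPM in those without. KRT81, a hair keratin, split libraries within groups: it was at 57.05 and 1.45 CPM in ferrostatin-1, 1.05 and 14 CPM in liproxstatin-1 and 13.55 and 1.85 CPM in TNF with liproxstatin-1, but at 1.47 to 1.80 CPM in TNF with ferrostatin-1, 43.7 and 50.4 CPM in TNF and 47.6 to 48.4 CPM in control. Markers of colonic epithelium summed to 9230 to 13800 CPM per library, led by keratins, while CDX1, CDH17 and GPA33 reached at most 1.81 CPM in any group mean. Leukocyte markers summed to 17.5 to 32.4 CPM, nearly all from CD14 and CD68, and PTPRC, their defining gene, averaged 0.0184 CPM in control and had no read in the other groups.

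The promoters of the 5 genes that carry most of the results are shown so that their sequences can be set beside their levels. They come from RefSeq on GRCh38.p14, run 5′ to 3′ on the gene's strand and end at the base before the start that RefSeq gives for the gene; 7 of the 10 genes matched the table. Capitals mark matches, on either strand, to the 4 motifs described after the sequences. AGR2 lies at chr7:16805000-16805249 (minus strand), AGR3 at chr7:16881984-16882233 (minus), FCGBP at chr19:39934635-39934884 (minus), SPDEF at chr6:34556330-34556579 (minus) and CREB3L1 at chr11:46294909-46295158 (plus).
AGR2: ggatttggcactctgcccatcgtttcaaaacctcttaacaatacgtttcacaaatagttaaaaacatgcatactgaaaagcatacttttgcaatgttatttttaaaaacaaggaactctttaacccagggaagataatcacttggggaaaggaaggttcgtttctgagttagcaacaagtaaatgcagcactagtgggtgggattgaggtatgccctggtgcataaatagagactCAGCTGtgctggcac
AGR3: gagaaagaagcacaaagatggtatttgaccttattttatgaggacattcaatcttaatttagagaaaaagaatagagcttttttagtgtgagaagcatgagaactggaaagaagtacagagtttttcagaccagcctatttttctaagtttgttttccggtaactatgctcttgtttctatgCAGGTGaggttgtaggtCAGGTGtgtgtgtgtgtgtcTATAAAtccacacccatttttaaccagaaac
FCGBP: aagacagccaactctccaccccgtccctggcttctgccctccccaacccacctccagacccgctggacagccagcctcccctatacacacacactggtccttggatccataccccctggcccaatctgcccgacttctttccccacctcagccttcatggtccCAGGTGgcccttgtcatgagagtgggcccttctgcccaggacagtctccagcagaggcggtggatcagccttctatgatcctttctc
SPDEF: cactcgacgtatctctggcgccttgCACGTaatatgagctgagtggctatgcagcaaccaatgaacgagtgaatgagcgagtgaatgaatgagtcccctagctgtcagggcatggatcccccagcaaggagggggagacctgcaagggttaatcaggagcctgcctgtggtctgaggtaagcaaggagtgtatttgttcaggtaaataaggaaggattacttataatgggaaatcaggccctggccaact
CREB3L1: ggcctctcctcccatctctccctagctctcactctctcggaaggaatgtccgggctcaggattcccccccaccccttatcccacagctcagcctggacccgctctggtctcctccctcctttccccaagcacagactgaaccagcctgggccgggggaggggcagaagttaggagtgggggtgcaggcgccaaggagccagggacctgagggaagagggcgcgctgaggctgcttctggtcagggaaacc

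The first motif, CAGNTG, the core bound by basic helix-loop-helix factors, occurred 1 time in AGR2, 2 times in AGR3 and 1 time in FCGBP. It is found in 42.5% of the 35116 promoters of this length. The second, ACGTG, a core of ER stress response elements, occurred 1 time in SPDEF (18.5% of promoters hold it). The TATA box TATAAA occurred 1 time in AGR3 (10.7%), and no match overlapped another. The last, the NF-kB motif, was in none of the 5, nor in REG4 or ATOH1, and is in 9.96% of promoters. GC content ran from 36.4% in AGR3 and 40.4% in AGR2 to 50.8% in SPDEF, 60.8% in FCGBP and 64.8% in CREB3L1, so the 5 windows share no motif of the 4 and differ in base composition. The labels name no genome build for the count table, and by the gene spans it lists the AGR2 and CREB3L1 windows lie inside their genes, the SPDEF window overlaps its gene's end, and those of AGR3 and FCGBP lie outside. The sequences are thus those before the RefSeq starts, which need not be the starts of the RNA counted here.

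Per length, the program was uneven in untreated HT-29 cells. In the deposited FPKM, CREB3L1 stood highest in control (52.4 ± 5.16, SD, n = 3), followed by AGR2 (40.2 ± 2.60) and SPDEF (24.5 ± 4.32), which places them above 96.7%, 95.4% and 91.6% of the tested genes. AGR3 (1.43 ± 0.37 FPKM) and FCGBP (1.03 ± 0.16 FPKM) lay near the middle, above 49.3% and 45.5% of tested genes. TFF1 (0.594 ± 0.157 FPKM) and TFF3 (0.541 ± 0.263 FPKM) overlapped each other, and TFF2 (0.0967), REG4 (0.0341) and ATOH1 (0.0156 FPKM) were at the floor of detection. The ER folding factor AGR2 and the regulators SPDEF and CREB3L1 were thus abundant, while the peptides that goblet cells secrete and the lineage factor ATOH1 were scarce.

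Some members are neighbours on a chromosome, in the coordinates of the deposited table. AGR2 (ENSG00000106541, chromosome 7, 16791811 to 16833433) and AGR3 (ENSG00000173467, 16859412 to 16881983) lie on the minus strand with 25978 bases between them, yet their control levels per length were far apart (40.2 and 1.43 FPKM). The trefoil genes TFF1 (ENSG00000160182, 42362282 to 42366535), TFF2 (ENSG00000160181, 42346357 to 42350997) and TFF3 (ENSG00000160180, 42311667 to 42315651) form a cluster on chromosome 21, with 11284 and 30705 bases between neighbours. SPDEF (ENSG00000124664) is on chromosome 6, 34537802 to 34556333, FCGBP (ENSG00000275395) on chromosome 19, 39863323 to 39934626, and REG4 (ENSG00000134193) on chromosome 1, 119794017 to 119811580, all on the minus strand. CREB3L1 (ENSG00000157613, chromosome 11, 46277662 to 46321409) and ATOH1 (ENSG00000172238, chromosome 4, 93828753 to 93830964) are on the plus strand. Of the 10, AGR3 alone overlaps another gene of the table, the pseudogene RAD17P1 on the same strand, which averaged 0.286 counts.

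**Figure D1:**
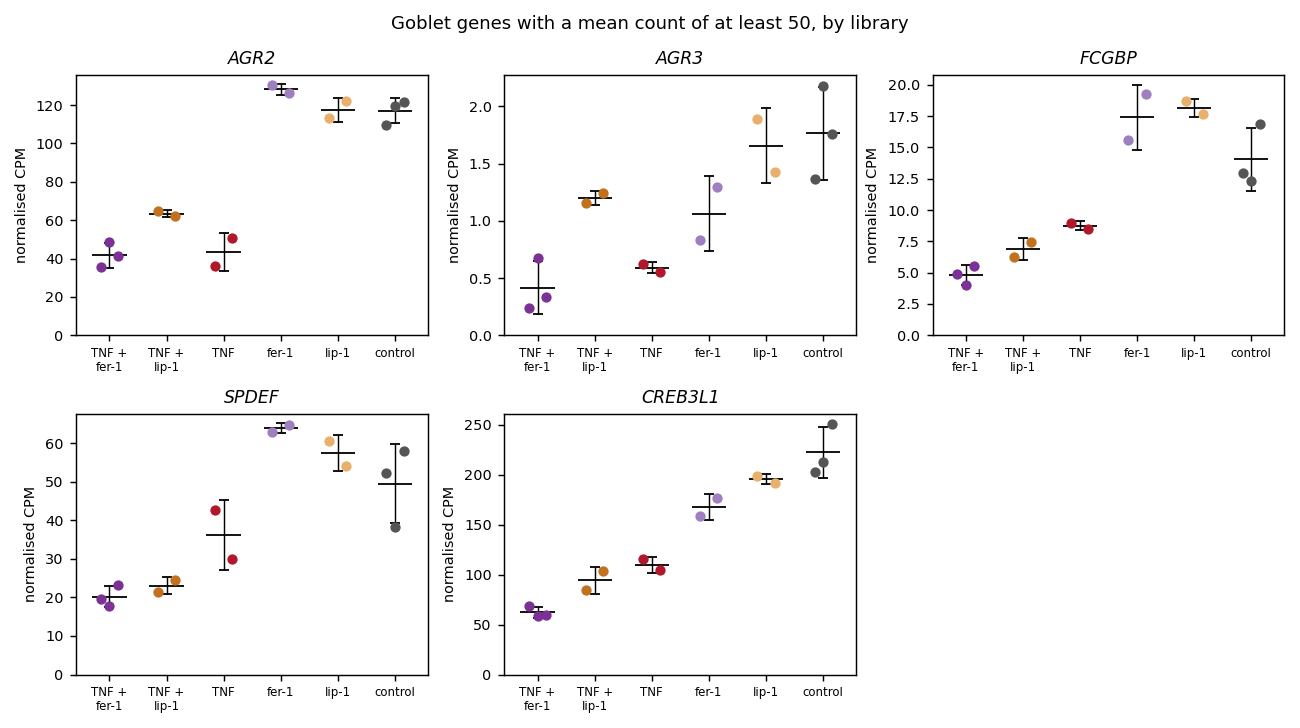
Normalised CPM (y axis) of the 5 goblet genes with a mean count of at least 50, by group (x axis); points are libraries, horizontal lines are means and bars are SD. In AGR2, FCGBP and CREB3L1 every library with TNF lies under every library without it, while SPDEF and AGR3 overlap.

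TNF lowered 5 of the 10 goblet genes. The effect of TNF was averaged over its 3 backgrounds (with ferrostatin-1, with liproxstatin-1 and with neither compound), and 5 of the 7 goblet genes that could be given a fold fell: AGR2, AGR3, FCGBP, SPDEF and CREB3L1. TFF1 and TFF3 did not pass the test, all 7 folds were negative, and 16.2% of the 22179 tested genes fell in the same comparison. The 5 mean log2 changes lay between -1.32 and -1.13, and the median over the 7 was -1.16, against 0.01 over all tested genes. Folds are from edgeR's quasi-likelihood test, with p-values adjusted by Benjamini-Hochberg over all tested genes and a threshold of 0.05. All 5 stayed past the threshold in each of the 18 alternative fits of this average.

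AGR2, the ER isomerase, fell on all 3 backgrounds. It was at 35.3, 48.4 and 41.2 CPM in TNF with ferrostatin-1, 64.7 and 62.0 CPM in TNF with liproxstatin-1 and 36.3 and 50.5 CPM in TNF, against 130.2 and 126.2 CPM in ferrostatin-1, 113.2 and 121.9 CPM in liproxstatin-1 and 109.8, 119.7 and 121.8 CPM in control. The libraries with TNF did not overlap those without it, and within TNF the liproxstatin-1 libraries were the highest. The mean TNF effect was -1.32 ± 0.09 on the log2 scale (SE, adjusted p = 7.03e-07). By background it was -1.62 ± 0.15 with ferrostatin-1 (adjusted p = 2.58e-05), -0.89 ± 0.16 with liproxstatin-1 (adjusted p = 0.00381) and -1.43 ± 0.15 with neither (adjusted p = 9.91e-05).

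AGR3, the paralog of AGR2, was detected with far fewer reads. It had 0.240, 0.678 and 0.331 CPM in TNF with ferrostatin-1, 1.16 and 1.24 CPM in TNF with liproxstatin-1 and 0.622 and 0.555 CPM in TNF. Without TNF it had 0.829 and 1.298 CPM in ferrostatin-1, 1.89 and 1.43 CPM in liproxstatin-1 and 1.36, 2.18 and 1.75 CPM in control. The TNF and TNF with ferrostatin-1 libraries were all below every library without TNF, whereas the TNF with liproxstatin-1 libraries lay above ferrostatin-1 library 1. Its mean TNF effect was -1.13 ± 0.24 (SE, adjusted p = 0.00314), and by background it was -1.34 ± 0.40 with ferrostatin-1 (adjusted p = 0.0355), -0.47 ± 0.43 with liproxstatin-1 (adjusted p = 0.544) and -1.58 ± 0.41 with neither (adjusted p = 0.0254).

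FCGBP, the mucus protein, had 4.88, 3.98 and 5.56 CPM in TNF with ferrostatin-1, 6.23 and 7.49 CPM in TNF with liproxstatin-1 and 8.999 and 8.504 CPM in TNF. Against these stood 15.6 and 19.3 CPM in ferrostatin-1, 18.7 and 17.7 CPM in liproxstatin-1 and 12.9, 12.3 and 16.9 CPM in control. No library with TNF reached one without it, and the order within TNF was opposite to that of AGR2 for liproxstatin-1, with both TNF libraries on top. The mean TNF effect was -1.31 ± 0.11 (SE, adjusted p = 3.78e-06), made up of -1.86 ± 0.18 with ferrostatin-1 (adjusted p = 4.84e-05), -1.41 ± 0.20 with liproxstatin-1 (adjusted p = 0.00106) and -0.68 ± 0.19 with neither (adjusted p = 0.0303).

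SPDEF, the goblet maturation factor, fell on both backgrounds with a compound. Its levels were 19.6, 17.8 and 23.3 CPM in TNF with ferrostatin-1, 21.5 and 24.6 CPM in TNF with liproxstatin-1 and 42.65 and 29.9 CPM in TNF, against 62.97 and 64.85 CPM in ferrostatin-1, 60.7 and 54.1 CPM in liproxstatin-1 and 52.3, 38.3 and 58.0 CPM in control. TNF library 1 lay above control library 2, so TNF and control overlapped, while both groups with TNF and a compound lay under all others. SPDEF fell by 1.66 ± 0.19 with ferrostatin-1 (SE, adjusted p = 0.00013) on the log2 scale and changed by -1.31 ± 0.21 with liproxstatin-1 (adjusted p = 0.00202), but its -0.45 ± 0.19 with neither compound did not pass (adjusted p = 0.138, 95% interval -0.87 to -0.03). Averaged over the 3, its change was -1.14 ± 0.12 (adjusted p = 1.56e-05).

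CREB3L1, the most abundant of the 10 per length, was at 68.7, 58.6 and 59.6 CPM in TNF with ferrostatin-1, 84.9 and 103.9 CPM in TNF with liproxstatin-1 and 115.6 and 104.3 CPM in TNF. Without TNF it was at 158.1 and 176.3 CPM in ferrostatin-1, 198.8 and 191.6 CPM in liproxstatin-1 and 202.5, 213.0 and 251.0 CPM in control. The groups with and without TNF were apart, and TNF with ferrostatin-1 was below every other library. The mean TNF effect was -1.16 ± 0.07 (SE, adjusted p = 4.54e-07), with -1.42 ± 0.12 in ferrostatin-1 (adjusted p = 1.84e-05), -1.05 ± 0.14 in liproxstatin-1 (adjusted p = 0.000576) and -1.01 ± 0.13 without a compound (adjusted p = 0.000297).

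**Figure D2:**
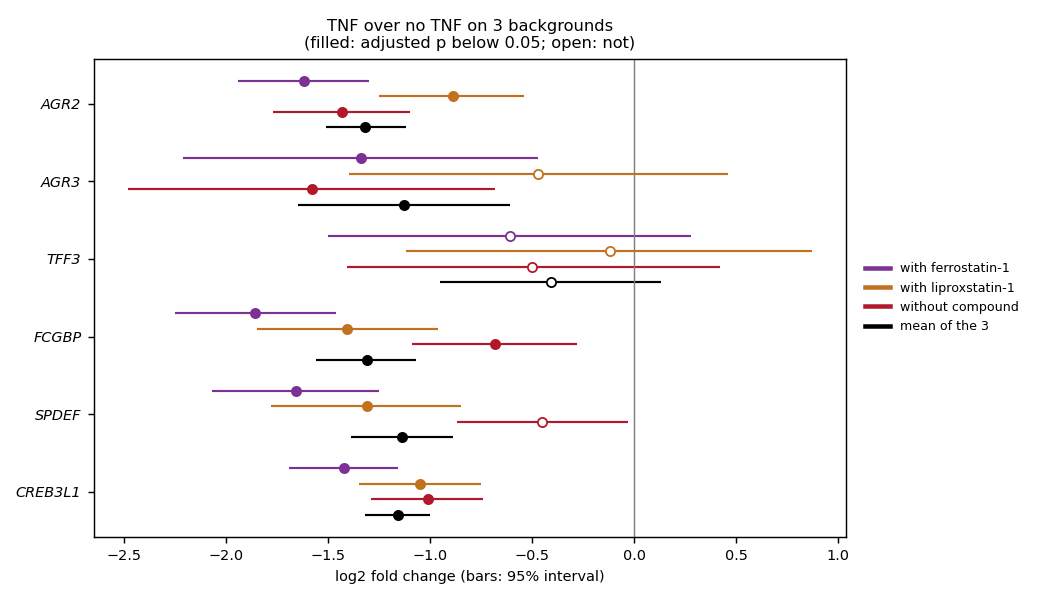
Log2 fold change of TNF over no TNF (x axis, bars are 95% intervals) for 6 goblet genes (y axis), on 3 backgrounds and as their mean; filled points passed an adjusted p of 0.05. AGR2, FCGBP and CREB3L1 are filled on all 3 backgrounds, SPDEF on those with a compound, and TFF3 on none.

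Counted by background, 5 of 7 goblet genes fell with TNF in ferrostatin-1 (9.36% of all tested genes fell), 4 of 7 in liproxstatin-1 (7.03%) and 4 of 7 with neither compound (6.44%), and all 7 folds were negative on each. The medians were -1.42, -1.05 and -1.01, with all-gene medians of 0.02, 0.06 and -0.02. In TNF against control, AGR2 and CREB3L1 kept their calls without any 1 library of those groups, at -1.69 to -1.21 and -1.09 to -0.92 over all alternatives. AGR3 lost its call without control library 2 or 3 or either TNF library (adjusted p = 0.0532 to 0.0915), and FCGBP lost its call without control library 1 or 3 or either TNF library (adjusted p = 0.0536 to 0.0946). SPDEF passed without control library 2 (adjusted p = 0.0372) or TNF library 1 (adjusted p = 0.0458), and in ferrostatin-1 AGR3 lost its call in 8 of 19 alternatives, among them without either library of ferrostatin-1 or of TNF with liproxstatin-1 or without TNF with ferrostatin-1 library 1 or 3 (adjusted p = 0.0539 to 0.273). In TNF against control, MKI67, a proliferation marker, was also lower, at 163 and 184 CPM in TNF against 311 to 376 CPM in control (-0.97, adjusted p = 0.000394), and the fibroblast marker COL1A1 was higher, at 14.2 and 23.3 CPM in TNF against 2.60 to 7.86 CPM in control (2.01, adjusted p = 0.0362). The part of these 2 in the goblet gene results was not tested.

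TFF1 and TFF3 were tested on few reads and did not pass, and TFF2, REG4 and ATOH1 were given no fold. TFF3, the trefoil factor typical of intestinal goblet cells, had 42, 42 and 32 reads in TNF with ferrostatin-1, 44 and 36 in TNF with liproxstatin-1 and 34 and 38 in TNF, against 67 and 58 in ferrostatin-1, 48 and 30 in liproxstatin-1 and 28, 74 and 46 in control. Its libraries overlapped across TNF, with a mean effect of -0.41 ± 0.25 (SE, 95% interval -0.95 to 0.13, adjusted p = 0.231). TFF1, better known from the stomach, had 4, 0 and 6 reads in TNF with ferrostatin-1, 5 and 0 in TNF with liproxstatin-1 and 0 and 12 in TNF, against 10 and 4 in ferrostatin-1, 29 and 0 in liproxstatin-1 and 25, 16 and 27 in control. The 3 control libraries exceeded all those with TNF, but the mean effect of -1.84 had an interval of -4.19 to 0.51 (adjusted p = 0.218).

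REG4 was not detected with TNF. It had 0 reads in all 7 libraries with TNF and in both ferrostatin-1 libraries, against 14 and 24 reads in liproxstatin-1 and 12, 16 and 0 in control. A floor of 3 counts was set over each group without reads. It covers counting error of that group only, and the few reads of the other group were taken as exact. On that basis REG4 was at least 6.46-fold lower in TNF than in control. The value was at least 14-fold for TNF with liproxstatin-1 under liproxstatin-1, and at least 5.95-fold for ferrostatin-1 under control. In control 1 library also had none. TFF2, another gastric trefoil factor, had 0 to 14 reads and ATOH1 0 to 8 reads per library, too few for a test, and neither was confined to groups with or without TNF.

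**Figure D3:**
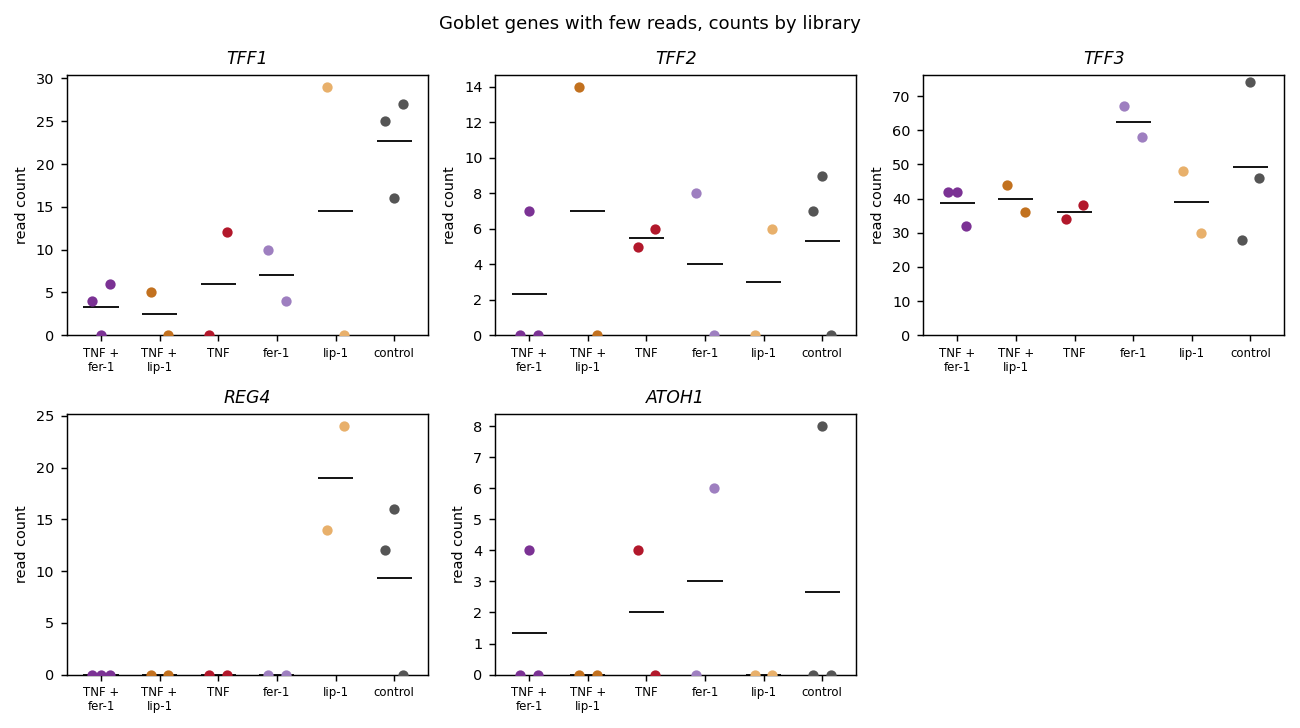
Read counts per library (y axis) of the 5 goblet genes with few reads, by group (x axis); points are libraries and lines are means. REG4 has reads in liproxstatin-1 and in 2 of 3 control libraries and in no library with TNF.

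Neither compound alone changed a goblet gene past the threshold. By edgeR, 0 of 7 were called for ferrostatin-1 against control (0.564% of all tested genes were; 1 goblet gene had an unadjusted p below 0.05) and 0 of 7 for liproxstatin-1 against control (0.0586% of all; 0 unadjusted), and DESeq2 also called 0 in both. The gene below an unadjusted 0.05 was CREB3L1, at 158.1 and 176.3 CPM in ferrostatin-1 against 202.5 to 251.0 CPM in control, a log2 difference of -0.41 ± 0.12 (SE, 95% interval -0.68 to -0.14, adjusted p = 0.18). AGR2 differed from control by 0.13 (95% interval -0.19 to 0.45) in ferrostatin-1 and by 0.01 (-0.31 to 0.33) in liproxstatin-1. SPDEF differed by 0.37 (-0.04 to 0.78) and 0.21 (-0.20 to 0.62), and FCGBP by 0.31 (-0.08 to 0.70) and 0.37 (-0.02 to 0.77). Between the compounds without TNF, edgeR and DESeq2 called 0 of 7 (0.104% of all genes were called; 0 goblet genes at an unadjusted 0.05), with intervals of -0.48 to 0.23 for AGR2 and -0.61 to 0.30 for SPDEF in liproxstatin-1 over ferrostatin-1.

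On top of TNF, ferrostatin-1 went with lower levels of both measured regulators and of FCGBP. In TNF with ferrostatin-1 against TNF, 3 of 7 fell (3.75% of all genes fell). The log2 change was -0.82 ± 0.12 for CREB3L1 (SE, adjusted p = 0.0086), -0.86 ± 0.18 for FCGBP (adjusted p = 0.0283) and -0.84 ± 0.19 for SPDEF (adjusted p = 0.0327). Each had all 3 libraries of TNF with ferrostatin-1 under both TNF libraries. AGR2 differed by -0.06 (95% interval -0.38 to 0.26), and AGR3 was at -0.49 (-1.37 to 0.40). With the 2 groups fitted alone, none of the 3 passed by edgeR (adjusted p = 0.19 to 0.254), and CREB3L1 missed without TNF with ferrostatin-1 library 2 (adjusted p = 0.0533). FCGBP missed without TNF library 1, any library of TNF with ferrostatin-1 or either of liproxstatin-1 (adjusted p = 0.0512 to 0.109), and SPDEF without any 1 library except control 2 and 3 and TNF 3 (adjusted p = 0.0528 to 0.181).

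KRT81 and several marker lists moved in the same comparison. KRT81 was 1.47 to 1.80 CPM in TNF with ferrostatin-1 and 43.7 and 50.4 CPM in TNF; in the ferrostatin-1 libraries, where it was 57.05 and 1.45 CPM, SPDEF stood at 62.97 and 64.85 CPM and FCGBP at 15.6 and 19.3 CPM. Of 8 fibroblast and endothelial markers 3 fell, with the list at 13.5 to 48.1 CPM in TNF with ferrostatin-1 and 32.6 to 52.2 CPM in TNF, and COL1A2 and DCN had no read in TNF with ferrostatin-1. Of 11 colonic epithelial markers 4 fell (CDX2, KRT8, KRT18 and KRT19), with sums of 9230 to 10100 CPM in TNF with ferrostatin-1 and 11600 to 13800 CPM in TNF. The stem and proliferation list was at 960 to 1050 CPM in TNF with ferrostatin-1 and 404 to 648 CPM in TNF, with MKI67 and PCNA higher (1.77% of all genes were). Their part in the goblet gene results was not tested.

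Adding liproxstatin-1 to TNF moved no goblet gene past the threshold. In TNF with liproxstatin-1 against TNF, edgeR called 0 of 7 (0.343% of all genes, 3 goblet genes at an unadjusted 0.05). DESeq2 called 2, AGR2 and SPDEF, among 2458 of 22179 genes. AGR2 was higher by 0.55 (95% interval 0.19 to 0.90, adjusted p = 0.103), AGR3 by 1.02 (0.07 to 1.98, adjusted p = 0.189), and the difference of SPDEF was -0.65 (-1.11 to -0.20, adjusted p = 0.114). Without TNF library 3, which left only TNF library 1 in that group, AGR2 differed by 0.80 and SPDEF by -0.89.

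The compounds were compared directly in the presence of TNF. In TNF with liproxstatin-1 against TNF with ferrostatin-1, CREB3L1 was higher by 0.60 ± 0.12 (SE, adjusted p = 0.0493), 1 of 7 against 0.681% of all genes higher. Its libraries were at 84.9 and 103.9 CPM in TNF with liproxstatin-1 and at 58.6 to 68.7 CPM in TNF with ferrostatin-1, but the call was lost in 14 of 20 alternatives, among them without any 1 library except control 3 and TNF 1 and 3 (adjusted p = 0.0586 to 0.581). AGR2 had the same difference, 0.60 (95% interval 0.29 to 0.92, adjusted p = 0.114), with no overlap of libraries, and passed in 4 of 20 alternatives, without either TNF library among them (adjusted p = 0.0137 and 0.0139). AGR3 differed by 1.51 (0.65 to 2.38, adjusted p = 0.159), FCGBP by 0.51 (0.11 to 0.91, adjusted p = 0.383) and SPDEF by 0.19 (-0.22 to 0.61, adjusted p = 0.959). Of the 7, 6 were on the side of liproxstatin-1, with a median of 0.51, against 0 over all genes.

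**Figure D4:**
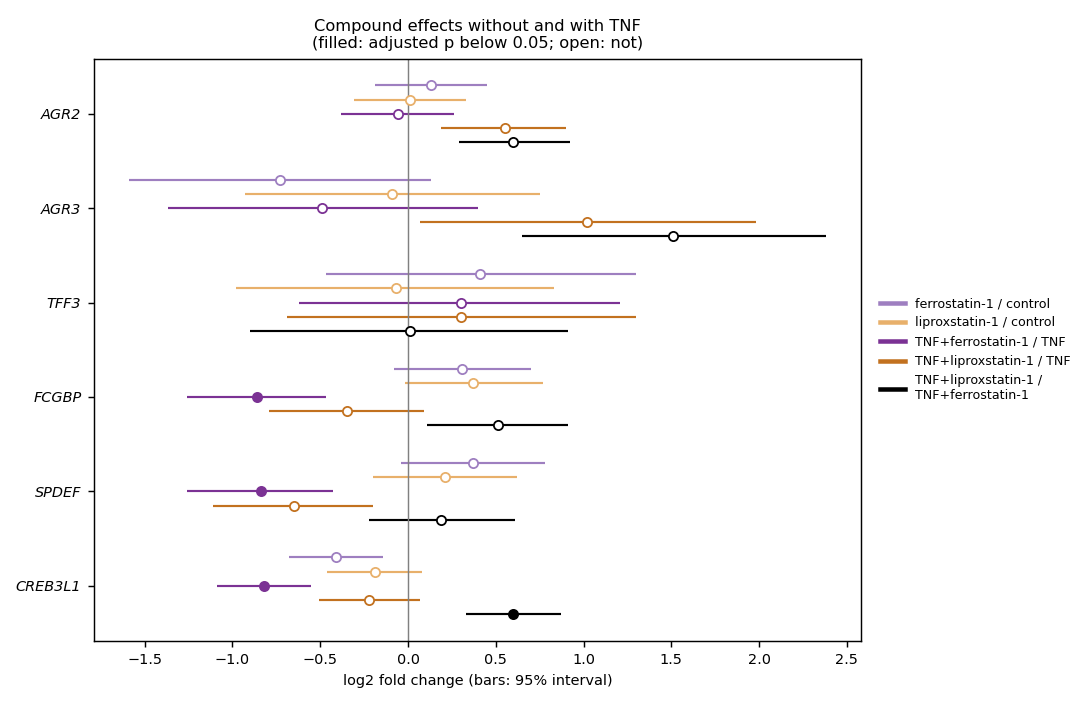
Log2 fold change of each compound over its reference (x axis, bars are 95% intervals) for 6 goblet genes (y axis), without TNF, with TNF and between the compounds in TNF; filled points passed an adjusted p of 0.05. The filled points are FCGBP, SPDEF and CREB3L1 in TNF with ferrostatin-1 over TNF, and CREB3L1 between the compounds.

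Whether a compound changed the size of the TNF effect was tested as an interaction. For ferrostatin-1 edgeR called 0 of 7 (0.00451% of all genes were called, 1 gene in all; 3 goblet genes at an unadjusted 0.05). SPDEF had an interaction of -1.21 ± 0.27 (SE, 95% interval -1.79 to -0.63) and FCGBP of -1.17 ± 0.26 (-1.73 to -0.62), each with an adjusted p of 0.0896. DESeq2 called both, among 1331 of 22179 genes. Without TNF library 3, which left only TNF library 1 in that group, the interaction was -1.45 for SPDEF and -1.21 for FCGBP. For liproxstatin-1 edgeR called 0 of 7 (0% of all genes, 3 goblet genes at an unadjusted 0.05). DESeq2 called 1, SPDEF, among 1303 of 22179 genes. The SPDEF interaction was -0.86 (-1.48 to -0.25, edgeR adjusted p = 0.164). AGR2 ran the other way, at 0.54 (0.06 to 1.02, adjusted p = 0.212). Without TNF library 3 the liproxstatin-1 interaction was -1.1 for SPDEF and 0.80 for AGR2. The interactions of the compounds with TNF were not called as different from each other for any of the 7 by edgeR or DESeq2 (0% of all genes; 1 at an unadjusted 0.05).

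Across the 14 libraries, the 5 members with a mean count of at least 50 varied in how alike their profiles were. Likeness was taken as the root mean square distance between log2 CPM profiles, each centred on its own mean. SPDEF and FCGBP were the closest members (0.192), followed by FCGBP and CREB3L1 (0.259) and SPDEF and CREB3L1 (0.313), and AGR3 and SPDEF the farthest apart (0.714). AGR2 lay closer to CREB3L1 (0.358) than to its paralog AGR3 (0.491). AGR3 had only 15 to 164 reads per library, so counting noise adds to all of its distances. For scale, the median distance of a member to all 14887 genes with such counts was 0.733 to 0.914.

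The non-member genes most like FCGBP were ATP2C2 (0.158), a calcium and manganese pump of the secretory pathway, TOX3 (0.191) and ERN2 (0.202), the IRE1 beta sensor of ER stress found in mucus-secreting epithelia. SPDEF was followed most closely by ZNF467 (0.145), SYTL1 (0.164), a synaptotagmin-like protein of vesicle traffic, and the ubiquitin ligase RNF41 (0.174). For CREB3L1 they were the antisense RNA CCDC183-AS1 (0.132), whose reads may be shared with its partner, the water channel AQP5 (0.174) and the heparan sulfotransferase HS3ST1 (0.195). AGR2 was nearest to PAPSS2 (0.179), which makes the sulfate donor used on mucins and other glycans, the vitamin C transporter SLC23A1 (0.181) and the ER peptidase ERMP1 (0.182). AGR3, with few reads, had more distant neighbours: AKAP7 (0.374), COLCA2 (0.396) and the potassium channel subunit KCNF1 (0.414). These distances describe 14 libraries that share groups and carry no test.

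**Figure D5:**
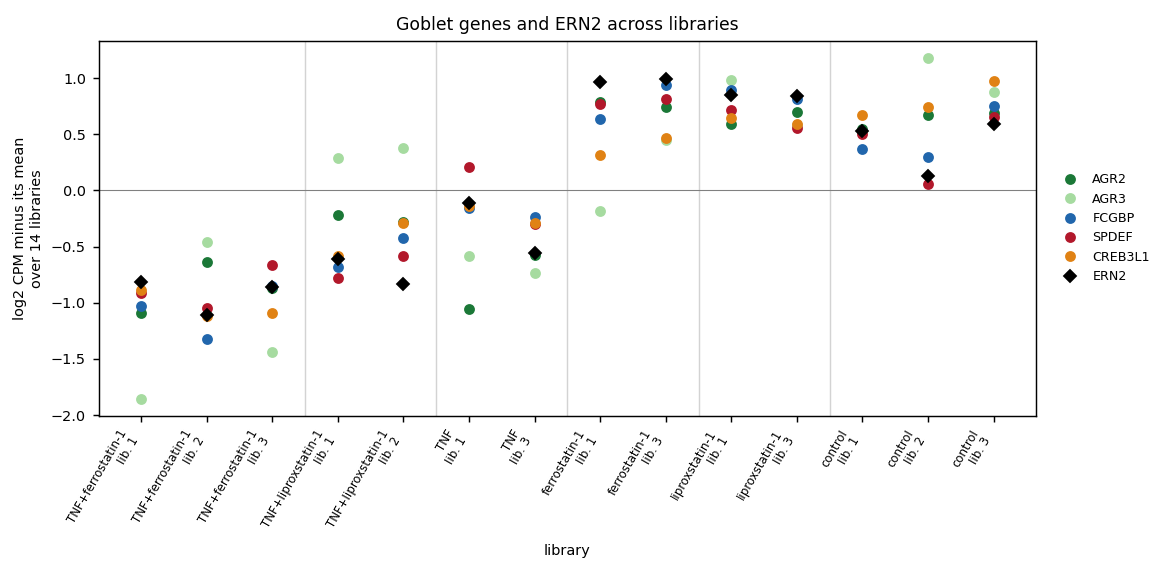
Log2 CPM minus its mean over 14 libraries (y axis) for 5 goblet genes and ERN2, by library (x axis, grouped by treatment). The points of SPDEF, FCGBP and ERN2 lie close together in most libraries, while AGR3 spreads furthest.

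The surrounding secretory machinery was read from lists of related genes. Of 24 ER stress and secretory capacity genes, 14 fell and 4 rose in the mean TNF effect, with a median of -0.32, where 16.2% of all tested genes fell and 17.6% rose. ERN2 fell by 1.40 ± 0.10 on the log2 scale (SE, adjusted p = 1.1e-06) and XBP1, the transcription factor that IRE1 activates by splicing, changed by -0.78 ± 0.10 (adjusted p = 9.74e-05). By background, XBP1 changed by -0.92 with ferrostatin-1 (adjusted p = 0.00238) and by -1.23 with liproxstatin-1 (adjusted p = 0.00129). Both lie beyond its mean, so its change with neither compound was weaker. In the mean TNF effect SEC24D, a coat protein of ER export vesicles, changed by -0.75 (adjusted p = 7.3e-05), while the ER disulfide isomerase PDIA4 rose by 0.40 (adjusted p = 3.93e-05), unlike AGR2. ERN2 was at 14.6 to 17.9 CPM in TNF with ferrostatin-1, 17.7 and 20.6 CPM in TNF with liproxstatin-1 and 21.3 and 29.2 CPM in TNF, against 61.5 and 62.6 CPM in ferrostatin-1, 56.5 and 56.7 CPM in liproxstatin-1 and 34.4 to 47.5 CPM in control. By background, 11 of the 24 fell and 1 rose with ferrostatin-1 (9.36% and 8.76% of all genes), 6 fell and 1 rose with liproxstatin-1 (7.03% and 7.57%), and 7 fell and 3 rose with neither (6.44% and 8.24%).

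Among 20 tested regulators of the secretory lineage besides the members, 9 fell and 1 rose in the mean TNF effect (16.2% and 17.6% of all genes). The log2 change was -1.24 for the Notch ligand DLL4 (adjusted p = 4.42e-05), -0.83 for HNF4A, a factor of intestinal epithelial identity (adjusted p = 5.12e-06), -0.77 for the pioneer factor FOXA1 (adjusted p = 1.56e-06) and -0.76 for the Notch target HES1, a repressor of ATOH1 (adjusted p = 0.000161). In TNF against control 2 fell (6.44% of all genes) and SOX9, a crypt progenitor factor, rose by 0.46 (adjusted p = 0.012), while 10 fell with TNF in ferrostatin-1 (9.36%) and 7 in liproxstatin-1 (7.03%); the difference between these counts was not tested. In TNF with ferrostatin-1 against TNF, 6 of the 20 fell (3.75% of all genes), among them HES1 (-0.99, adjusted p = 0.0157) and GATA6 (-0.55, adjusted p = 0.0199). Over all genes this comparison called 1224, but 11 with the 2 groups fitted alone.

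The mucins, the cargo that AGR2 and FCGBP work with, held called genes of both directions. Of 11 tested, 3 rose and 2 fell in the mean TNF effect (17.6% and 16.2% of all genes), with a median of 0.06. MUC5AC, a gel-forming mucin, averaged 189, 198 and 219 CPM in TNF with ferrostatin-1, TNF with liproxstatin-1 and TNF, against 129, 113 and 109 CPM in ferrostatin-1, liproxstatin-1 and control (0.79 on the log2 scale, adjusted p = 0.0144). MUC2, the main goblet mucin of the colon, stood at 3.33 to 4.96 CPM in all group means. The membrane mucin MUC13 differed between the compounds with and without TNF. It was higher in TNF with liproxstatin-1 than in TNF with ferrostatin-1 by 1.26 (adjusted p = 5.14e-05). Without TNF it was higher in liproxstatin-1 than in ferrostatin-1 by 1.14 (adjusted p = 0.000938).

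Of 22 enzymes that add or extend mucin O-glycans, 6 rose and 5 fell in the mean TNF effect (median 0.02), beside 17.6% and 16.2% of all genes. Of the initiating transferases, GALNT5 (1.18, adjusted p = 3.7e-05) and GALNT6 (1.06, adjusted p = 2.47e-06) were higher and GALNT3 (-0.81, adjusted p = 0.000208) lower, and GCNT3, which branches mucin cores, changed by -0.71 (adjusted p = 1.38e-06). Of 15 other goblet granule and mucus proteins 12 were found and 7 tested, and 3 fell and 1 rose in the same effect. Among those that fell, KLK1, a secreted protease, was at -0.82 (adjusted p = 0.00516) and SYTL2, a vesicle docking protein, at -0.76 (adjusted p = 0.0128). KLK1 passed on no single background (adjusted p = 0.268 with neither compound, 0.0693 with ferrostatin-1 and 0.0699 with liproxstatin-1). SYTL2 passed only with neither compound (-1.39, adjusted p = 0.0234), against -0.66 with ferrostatin-1 and -0.22 with liproxstatin-1. The remaining called genes, FER1L6 (lower) and TPSG1 (higher), had mean counts of only 16.2 and 12.4. The granule genes ZG16, SPINK4, ITLN1 and BEST2 had a group mean of at most 0.086 CPM in every group. REG1A, REG1B, REG3A and REG3G were looked up by name and were not found in the deposited count table.

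In the mean TNF effect, where 16.2% of all genes fell and 17.6% rose, 4 of 11 colonic epithelial markers fell (VIL1, CDH1, CDH17 and GPA33), 1 of 5 absorptive and 1 of 3 tested Paneth cell markers fell, the 8 fibroblast and endothelial markers had a median of 0.06 (1.31 with neither compound, -0.69 with ferrostatin-1 and 0.27 with liproxstatin-1), and 2 of 7 tuft cell markers rose. Among 5 leukocyte markers 1 rose and 1 fell, 1 of 6 stem and proliferation genes rose (PCNA, 0.89, adjusted p = 4.98e-06), and the 1 tested enteroendocrine gene, SCG5, did not pass. By background, the stem and proliferation genes had 1 of 6 lower in TNF against control (6.44% of all genes fell). With TNF, 1 of 6 rose in ferrostatin-1 (8.76% of all genes) and 3 of 6 in liproxstatin-1 (7.57%). In liproxstatin-1, MKI67 rose with TNF by 0.50 (adjusted p = 0.0289).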

How the data were processed

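Poly(A) RNA was made into dUTP libraries and sequenced as paired ends, per the labels' protocols. The authors deposited whole-number counts per gene and FPKM for 14 libraries; FPKM was read in control only, to order levels between genes, and 11 other FPKM columns were not used. The submitters' processing notes name HISAT2 2.0.4, cutadapt 1.9 and StringTie 1.3.4d, besides DESeq2 and edgeR. Build and strand setting of the counting: not given in the sources used here. Groups came from the labels. Columns of TNF and of each compound alone carry the numbers 1 and 3, unlike their titles, and were matched by group only; libraries are called by their column's number.

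TMM scaling (factors 0.947 to 1.053) was done in edgeR 4.0.16 (R 4.3.3), and filterByExpr left 22179 genes. One model of all 6 groups gave 13 comparisons by the quasi-likelihood test with Benjamini-Hochberg adjustment at 0.05. SE is the log2 fold change over the square root of F; intervals are 95% t intervals and approximate. The mean TNF effect is the average of the 3 TNF comparisons. REG4, with groups at 0, got a bound and no fold, and TFF2 and ATOH1 failed the filter. Likeness used log2 CPM with a prior count of 2. Every pair of libraries within a group differed by more than sampling noise. As alternatives, RLE scaling, no filter, a filter of 1 CPM in 3 libraries, DESeq2 1.42.0, the compared groups alone, a replicate block and leaving out each library were run. All members were named; from each related list, up to 4 called genes of lowest p were named per comparison. The members and lists were chosen with earlier results of these data known, and genes named beside a marker list were chosen after their values were seen.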

Additional observations from a re-analysis of the deposited data

How the results depend on the processing

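The mean TNF effect called 5 goblet genes in every alternative, TNF within liproxstatin-1 called 4, and each compound against control and liproxstatin-1 against ferrostatin-1 called 0. Other counts moved. TNF against control gave 4, but 2 with the groups alone, and 2 to 4 with a library left out. TNF with ferrostatin-1 against TNF gave 3, but 0 with the groups alone, and 0 to 3 with a library left out. TNF with liproxstatin-1 against TNF gave 0, but 2 in DESeq2, which called 2458 genes over all where edgeR called 76. Leaving out a library changed that count only for TNF library 3, which left only TNF library 1 in its group. TNF with liproxstatin-1 against TNF with ferrostatin-1 gave 1, but 0 under RLE scaling, 0 with no filter, 3 in DESeq2, 2 with the groups alone, and 0 to 2 with a library left out. The interactions gave 0, but 2 (ferrostatin-1) and 1 (liproxstatin-1) in DESeq2. With a library left out, both of these counts also changed only without TNF library 3. TNF within ferrostatin-1 gave 4 to 5 with a library left out. The cause was not tested. Over all genes, TNF against control called 3255 genes, and 397 with the groups alone; TNF with ferrostatin-1 against TNF called 1224, and 11 with the groups alone; DESeq2 called 1331 and 1303 interactions where edgeR called 1 and 0. Of the single-gene values, 1614 kept their side of the threshold, 53 lost it, 18 gained it and 0 reversed.

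Same-numbered libraries did not deviate together (correlations of -0.02 to 0.03), so the numbers do not pair them. A replicate block was fitted where titles give numbers, for TNF with liproxstatin-1 against TNF with ferrostatin-1, and called 0 goblet genes. The counts of TFF1, TFF2, REG4 and ATOH1 stayed under 30 in every library, which limits what can be said of them.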
